A study of Mus musculus with 4 samples.

Results

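NR1D1 peaks that were called after vasostatin-2 and not with saline, and that lay in the interior of genes, numbered 2816 of the 8816 peaks of the vasostatin-2 library. A peak was included when it shared no base with any peak of the saline (PBS) library and when its summit, the position with the most fragments, lay inside a RefSeq gene of build mm10 and more than 1 kb from both ends of every gene. Both libraries came from primary wild-type smooth muscle cells of mouse aorta, cultured with serum and kept for 24 h either in PBS or in vasostatin-2, a peptide cut from chromogranin A. NR1D1 was mapped by CUT&Tag, in which an antibody directs a transposase to chromatin so that the DNA beside the bound protein is released and sequenced. Each treatment had 1 NR1D1 library and 1 IgG control library. The IgG libraries were not analysed here, and all 4 libraries carry the same batch label. The dose, and the strain, sex, age and number of the mice, are not given in the sources used here. With 1 NR1D1 library per treatment nothing measures the spread between cultures, so no treatment effect was tested. The members were chosen by presence in one list and absence from the other, and that presence is a description and not a finding.

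NR1D1, also called REV-ERB alpha, is a nuclear receptor without the activation helix of its relatives. It binds DNA at AGGTCA half-sites with an A/T-rich flank, or at pairs of them, and recruits the NCoR and HDAC3 corepressor to silence clock and metabolic genes such as Arntl. In liver many of its sites lie away from promoters, in introns and between genes, where it can also be held by other bound factors. A peak in the interior of a gene marks a place on the gene's body and does not by itself say which gene is controlled. Long genes offer more interior bases, so the number of peaks that a gene holds has to be read against its length.

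A few members lay at a transcript start inside their host gene, and their sequences are shown because they are the members with a listed regulatory position. RefSeq start windows (GRCm38.p6, 250 bases before and 50 after a start) touched 42 members through 44 windows, each of a host gene, and held the summit of 24 of these members. The lines below give the part of the peak that lay within the window and before the start, on the strand of the gene. They cover the 6 touched members with the most summit fragments whose 21 bases around the summit fell within that part. Capitals mark the 21 bases centred on the summit.
Ubxn6: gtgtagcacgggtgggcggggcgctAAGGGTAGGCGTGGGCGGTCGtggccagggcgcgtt
Tob1: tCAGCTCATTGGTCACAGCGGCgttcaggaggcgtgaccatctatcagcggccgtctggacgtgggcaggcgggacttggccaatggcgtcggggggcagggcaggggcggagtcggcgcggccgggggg
Kmt5a: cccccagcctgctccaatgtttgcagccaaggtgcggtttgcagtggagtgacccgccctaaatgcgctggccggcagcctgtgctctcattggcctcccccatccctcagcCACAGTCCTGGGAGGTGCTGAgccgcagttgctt
Sgk1: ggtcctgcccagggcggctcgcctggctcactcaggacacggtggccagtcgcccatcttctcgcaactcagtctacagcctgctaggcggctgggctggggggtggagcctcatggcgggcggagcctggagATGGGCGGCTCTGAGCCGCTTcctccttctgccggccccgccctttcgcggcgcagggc
Plxnb2: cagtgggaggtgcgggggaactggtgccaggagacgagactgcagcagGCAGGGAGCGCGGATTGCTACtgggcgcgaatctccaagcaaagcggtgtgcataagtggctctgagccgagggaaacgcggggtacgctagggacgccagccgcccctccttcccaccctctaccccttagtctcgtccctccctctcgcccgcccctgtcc
Aktip: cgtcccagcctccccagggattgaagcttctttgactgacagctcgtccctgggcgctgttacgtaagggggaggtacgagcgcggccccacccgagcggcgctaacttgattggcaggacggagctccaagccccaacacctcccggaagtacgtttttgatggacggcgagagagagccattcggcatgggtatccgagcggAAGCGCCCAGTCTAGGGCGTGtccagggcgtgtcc
The Ubxn6 stretch (a cofactor of the p97 ATPase) is chr17:56074567-56074627, minus strand, and its summit of 14 fragments lay 26 bp before the start. Tob1 (an antiproliferative protein) is chr11:94211204-94211333, plus strand, with 12 fragments, and Kmt5a (the histone H4 lysine monomethyltransferase) is chr5:124446558-124446703, plus strand, also with 12. Sgk1, a kinase induced by serum and glucocorticoids, is chr10:21994462-21994653, plus strand, with 11 fragments 61 bp before the start. Plxnb2 (a semaphorin receptor) is chr15:89180828-89181038, minus strand, with 10 fragments, and Aktip is chr8:91134028-91134266, minus strand, with 9. The nearest PBS peak was 0.523 kb from the Tob1 member and 4.31 to 179 kb from the others. The 6 stretches were rich in G and C, at 63.2% to 73.8%, and the median GC content was 63.0% over the 44 windows touched and 52.7% over all 32815 windows. The half-site AGGTCA, searched on both strands, was in none of the 6 stretches. It was in 3 of the 44 whole windows (6.82%, 95% Wilson interval 2.35 to 18.2) and in 16.3% of all windows, a share inside that interval. Its extended form, with AANT directly before AGGTCA, and the direct repeat of AGGTCA with any 2 bases between the copies both contain the half-site and were in 0 of the 44 windows and in 0.219% and 0.00914% of all windows. These counts describe the letters of the windows only.

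The members were weak peaks. Their summits held a median of 6 fragments, from 4 to 46. With 4 to 5 fragments there were 1045 members (37.1%, 95% Wilson interval 35.3 to 38.9), with 6 to 8 there were 1214 (43.1%), with 9 to 12 there were 456 (16.2%), with 13 to 20 there were 91 (3.23%) and with 21 to 49 there were 10 (0.355%). The authors' fold enrichment over local background had a median of 4.75 and ranged from 2.63 to 19.1, and their q-value was under 1e-05 at 455 members (16.2%). Peaks were 181 to 920 bp wide, with a median of 234 bp. PBS-only peaks inside genes (1801) had the same median of 6 fragments, and the 746 peaks inside genes that overlapped a PBS peak had a median of 10. In the plot of summit fragments the members and the PBS-only peaks fill the same low classes, and the shared peaks sit higher. The rule chose the members by their absence from a list that itself has a threshold on strength, so this difference is a description.

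**Figure D1:**
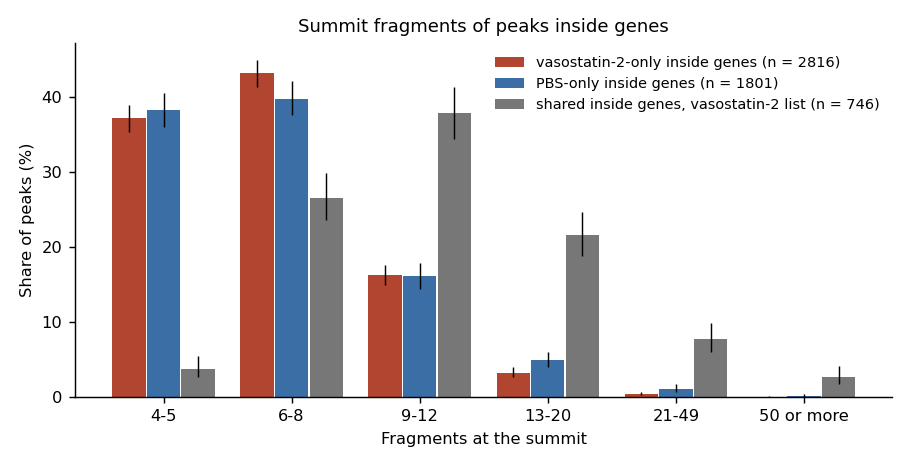
Share of peaks (%) by number of fragments at the summit for the 2816 vasostatin-2-only, 1801 PBS-only and 746 shared peaks inside genes, with 95% Wilson intervals. Most members hold 4 to 8 fragments, and shared peaks are most frequent at 9 to 12.

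The vasostatin-2 library was the deeper of the pair, by a factor of 1.32 read from the uniform background in the peak values. After division by this factor 1045 members (37.1%) held fewer than 4 fragments, the fewest found at any PBS peak, and 1771 did not. At those 1045 sites a PBS peak of the same relative strength would have held fewer fragments than any peak of that list. The part of depth in the absence of PBS peaks was not tested. Fragments of the PBS library at the members are not part of the lists, so no ratio between the libraries can be stated for any member. Of all 8816 vasostatin-2 peaks 70.0% had no PBS counterpart, and inside genes 79.1% of 3562 had none. In the PBS list 64.4% of all peaks and 71.2% of 2530 peaks inside genes had no vasostatin-2 counterpart.

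Of the 6167 vasostatin-2-only peaks 45.7% (95% Wilson interval 44.4 to 46.9) were inside genes, 39.7% were intergenic and 14.6% lay within 1 kb of a gene end. Eligible bases, meaning those inside a gene and more than 1 kb from every gene end, made up 43.1% of the chromosomes between 3 Mb and the last annotated gene or peak. The share of vasostatin-2-only peaks inside genes was therefore close to the share of such bases, which lay just below its interval. For PBS-only peaks it was 37.9% (36.6 to 39.3) and for shared peaks of the vasostatin-2 list 28.2% (26.5 to 29.9). These intervals, and the Poisson intervals below, cover counting error only, and peaks of 1 library are not replicates of a treatment.

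The median member lay 12.3 kb from the nearest gene end. Between 1 and 5 kb there were 730 members (25.9%), between 5 and 20 kb 1065 (37.8%), between 20 and 100 kb 875 (31.1%) and farther away 146 (5.18%). At the limit of 1 kb, the 21 members nearest to it, at up to 1100 bp from an end, had a median of 6 fragments, and 31 vasostatin-2-only peaks that were left out lay in a gene at 900 to 1000 bp with a median of 7. The nearest PBS peak was 89.9 kb away in the median. It was within 500 bp at 40 members (1.42%) and within 10 kb at 244 (8.66%). The shares that even placement would give at these distances were not computed, and the rule leaves out peaks that overlap a PBS peak. At the limit of the overlap rule, 17 members had a PBS peak within 100 bp, and 15 shared peaks inside genes overlapped by 50 bp or less. Both sets had a median of 7 fragments.

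The member of highest fold enrichment was in Pacs1, which encodes a sorting protein of the trans-Golgi network, at chr19:5149004-5149201 with 44 fragments and 19.1-fold enrichment. It lay 124 kb into a gene of 139 kb, and the nearest PBS peak was 30.6 kb away. The second was in Itga9, the integrin alpha 9 subunit that binds tenascin C and osteopontin, at chr9:118797955-118798198 with 33 fragments and 17.6-fold. Tcf4, an E-protein transcription factor on chromosome 18, held a member of 23 fragments and 14.2-fold with no PBS peak for 537 kb. In Ror2, a receptor tyrosine kinase for Wnt5a, the peak at chr13:53269715-53269984 also had 23 fragments, at 13.3-fold, and a PBS peak lay 5.26 kb away. Only 13 of the 2816 members had 20 fragments or more, and these 4 are among them.

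Further members of high fold were in Bank1, a scaffold of B-cell receptor signalling (20 fragments, 12.8-fold), and in Gphn, which encodes the synaptic anchor gephyrin (18 fragments, 12.1-fold). Sh2d4b held a member of 17 fragments and 11.8-fold. Ppp1r12b, a targeting subunit of myosin phosphatase, held one of 18 fragments at 11.04-fold, 6.55 kb into the gene. Stag1, a subunit of cohesin, held one of 15 fragments at 10.7-fold. Widths of the 9 peaks named so far were 187 to 488 bp. Of the 13 members with at least 20 fragments, 5 are among those named so far, 4 were in Sfi1 and 3, named here after their values were seen, were in Best1 (27), Tmem267 (21) and Ahnak2 (20).

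The number of host genes was near that given by gene length, and the longest genes held fewer members than their length gives. The 2816 members lay in 2408 genes, of which 1925 were protein-coding and 451 were long noncoding RNA genes. Of the members 95.03% lay in exactly 1 gene each and 139 members lay in 2 genes each. The remaining 1 lay in 23 overlapping gene models, most of them of the Pcdhg protocadherin cluster. Of 19211 protein-coding genes with eligible bases 10.0% held a member, 7.09% a PBS-only and 3.08% a shared peak inside genes. If the same number of summits fell evenly over all eligible bases, 1849.9 protein-coding genes would hold at least 1, against the 1925 observed. Members lay in a protein-coding gene in 85.3% of cases, and such genes cover 84.3% of eligible bases. The median host was 102.7 kb long (95% interval of the median 97.2 to 107.6), taking the longest host of each member.

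By length of that host, 97 members were in genes under 10 kb, 1.29 times the number that even placement gives (95% Poisson interval 1.04 to 1.57). In genes of 10 to 30 kb there were 406, 1.15 times (1.04 to 1.27), and in genes of 30 to 100 kb 885, 1.12 times (1.05 to 1.1996). Genes of 100 to 300 kb held 821, 1.04 times (0.969 to 1.11). In genes of 300 to 1000 kb 485 members were found, 0.813 times (0.742 to 0.889), and in genes of 1000 kb or more 122, 0.573 times (0.476 to 0.685). From the shortest to the longest class the ratio was thus lower at each step, though intervals of neighbouring classes overlapped up to 300 kb. For all hosts of at least 100 kb it was 0.893 (0.847 to 0.940).

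The same ratio for hosts of at least 100 kb was 0.805 (0.751 to 0.862) for PBS-only and 0.637 (0.563 to 0.718) for shared peaks inside genes. Shared peaks were present at 2.15 times the even number in genes under 10 kb and at 0.195 times (0.0974 to 0.349) in genes of 1000 kb or more. Members were thus nearer to even placement than shared peaks at both extremes, with intervals that did not overlap in genes of 1000 kb or more. The PBS-only ratios in these classes, 1.70 and 0.470, lay between them. Among members with at least 8 fragments the ratio in hosts of at least 100 kb was 0.802 (0.724 to 0.886).

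**Figure D2:**
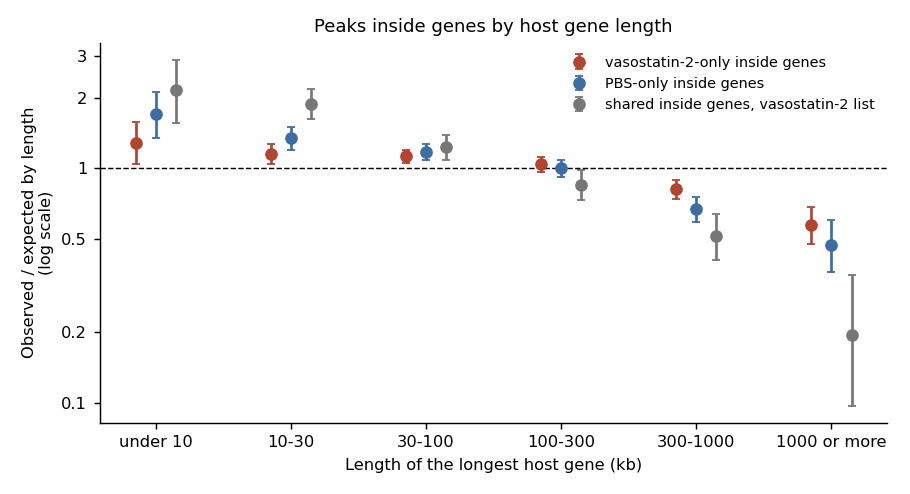
Observed number of peaks inside genes over the number expected by eligible bases (log axis) in 6 classes of host gene length in kb, with 95% Poisson intervals, for vasostatin-2-only, PBS-only and shared peaks. The members run from 1.29 in genes under 10 kb to 0.573 in genes of 1000 kb or more, and shared peaks run from 2.15 to 0.195.

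Seen by gene, the share that held a member rose from 1.01% of 5249 protein-coding genes under 10 kb to 79.7% of the 59 genes of 1000 kb or more, where even placement gives 0.829% and 95.1%. Genes of 30 to 100 kb held a member in 13.4% of cases against 11.6%. Genes of 300 to 1000 kb did so in 57.03% (52.6 to 61.3) against 66.2%. Single members were found in 1557 genes (1487 by even placement), 2 or more in 368 (363), 3 or more in 108 (114) and 5 or more in 9 (20.2). Neighbouring members of a gene were 58.2 kb apart in the median, and 49 of 522 such pairs were within 10 kb.

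The genes with the most members were long. Rbms3, an RNA-binding protein gene of 1057 kb, held 7 (2.56 by length) with 7 to 13 fragments, beside 3 PBS peaks. Its strongest member, of 13 fragments, lay 94.1 kb after the start. Another, of 10 fragments, lay at 74.4 kb and 1.87 kb from a PBS peak. Auts2, a partner of Polycomb complexes in neurons, held 7 in 1106 kb (2.70 by length), with 4 to 10 fragments and no PBS peak in the gene. Cdh13, the membrane-anchored T-cadherin of vascular cells, held 7 in 1185 kb (2.87 by length) with 4 to 12 fragments, beside 7 PBS peaks. The ratio over length was thus 2.43 to 2.74 in these 3 genes. Arhgap24, a Rac GTPase-activating protein, held 5 (1.69 by length), and Fam189a1 5 (0.955 by length).

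Of the genes chosen for their number of members, 2 were shorter, and at a like number of members a shorter gene has a higher ratio by construction. Zfp469, a zinc finger gene linked to corneal collagen, held 6 members in 229.5 kb against 0.539 by length (11.1 times). Their fragments were 12, 13, 8, 6, 7 and 9 from the lower-numbered end of the gene upwards, and the gene held no PBS peak. Svil, which encodes the actin-binding membrane protein supervillin, held 5 members of 4 to 9 fragments in 199 kb against 0.464 by length, again with no PBS peak in the gene.

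Genes with at least 3 members were also ranked by the ratio over length, which favours shorter genes by construction. Dcaf10, a substrate receptor of CUL4 ubiquitin ligases, held 3 of 4 to 5 fragments in 38.8 kb (0.0903 by length). Tfeb, the master regulator of lysosome genes, held 3 in 55.4 kb (0.131 by length), with 9 fragments at 9.03 kb, 9 at 23.1 kb and 11 at 24.7 kb after the start. A shared peak lay in the same gene. Pfkp, the platelet phosphofructokinase of glycolysis, held 3 in 69.2 kb with 8, 4 and 11 fragments and no PBS peak. Vsir, the immune checkpoint VISTA, held 3 of 5 to 12 fragments, and Dip2a 3 of 5 to 14. These genes are the extremes of 108, chosen by this ratio, so their ratios are descriptions.

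Sfi1, which encodes a centrin-binding protein of the centrosome, differed from the others. Its 4 members had 29, 30, 46 and 37 fragments but only 2.63-fold to 3.97-fold enrichment, within a gene of 71.5 kb on chromosome 11. The gene also held 14 PBS peaks, and the nearest PBS peak was 1.2 to 6.0 kb from the members. Fold is the ratio of summit to local background, so the local background at these members was high. No repeated or multi-copy regions were masked here, and their part in these peaks was not tested.

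At the other end, the longest protein-coding genes with no member were Macrod2 (1998 kb, 4.86 by length), which encodes an ADP-ribose hydrolase, Nrxn3 (1612 kb, 3.94 by length), a presynaptic adhesion protein, and Il1rapl1 (1375 kb, 3.34 by length), a synaptic receptor gene on chromosome X. Each held 1 PBS-only peak. All 59 protein-coding genes of 1000 kb or more together held 118 members against 193 by length, and 47 of them held at least 1.

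**Figure D3:**
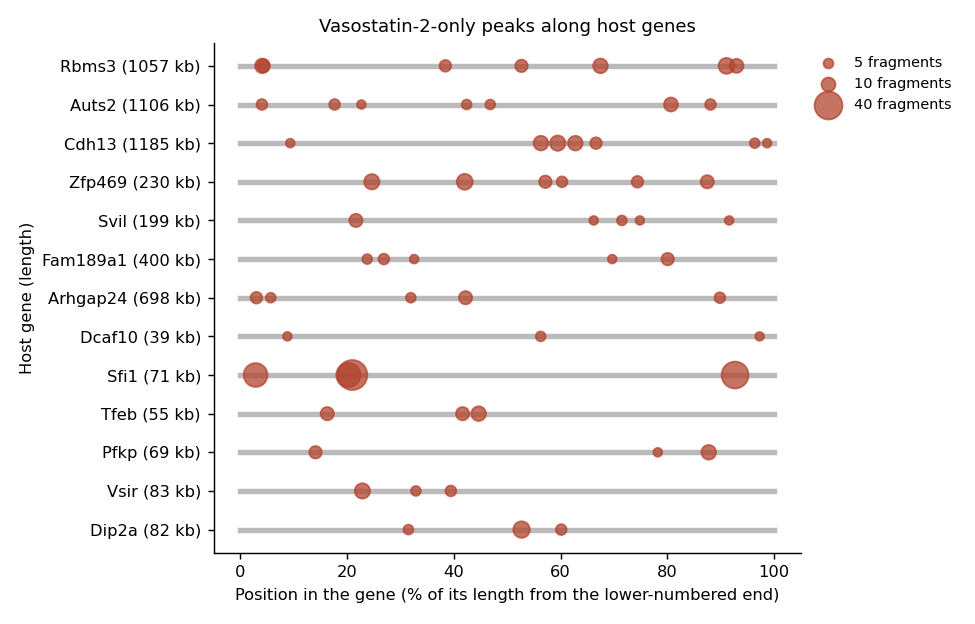
Positions of vasostatin-2-only peaks along 13 host genes named for the most members or the highest number over length, as % of gene length from the lower-numbered end; dot area is proportional to summit fragments. Members are spread along Rbms3, Auts2 and Zfp469, and Sfi1 carries the 4 dots of 29 to 46 fragments.

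Along protein-coding hosts with a listed strand the members were spread almost evenly. In 5 equal stretches from the start to the end of the gene 20.6%, 21.3%, 19.3%, 20.2% and 18.5% of 1879 members were found, and eligible bases gave 18.9%, 20.7%, 20.8%, 20.7% and 18.9%. Within 5 kb after the first start lay 8.83% (7.63 to 10.2) of them, and 6.99% of eligible bases. Shared peaks inside genes had 23.2% (19.8 to 27.04) there and PBS-only peaks 13.9% (12.02 to 15.9). The last of the 5 stretches held 11.1% of shared and 15.03% of PBS-only peaks.

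Near listed transcript starts inside genes the members were more frequent than bases, but less so than the other peaks. Of 2708 members outside chromosome 18, 72 (2.66%, 95% Wilson interval 2.12 to 3.33) had a summit within 1 kb of such a start, where 0.830% of eligible bases lie. That is 3.20 times the even number (95% Poisson interval 2.51 to 4.03). The ratio was 11.2 (9.52 to 13.06) for PBS-only and 20.6 (17.1 to 24.5) for shared peaks inside genes, at 9.29% and 17.1% of peaks. The intervals of the 3 sets did not overlap. Among members with q under 1e-05 the ratio was 1.98 (0.796 to 4.08), an interval that includes 1. The start table is not complete, and the same table served the 3 sets.

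Among genes of 300 to 1000 kb, hosts of members held PBS peaks more often than other genes, with intervals that did not overlap. Length was not matched within a class. A PBS peak with its summit in the gene or within 1 kb was found at 41.4% (37.4 to 45.4) of 580 hosts and 34.9% (32.4 to 37.5) of 1292 other genes of 100 to 300 kb. For genes of 300 to 1000 kb it was 56.0% (50.2 to 61.6) of 284 hosts and 36.4% (30.3 to 43.1) of 214 others. The intervals for 100 to 300 kb overlapped. So did those for 30 to 100 kb, at 31.7% (28.3 to 35.3) of hosts and 28.9% (27.5 to 30.2) of other genes. For genes of 10 to 30 kb the shares were 22.97% and 22.4%. Shared peaks were found at 13.97% of hosts and 13.5% of other genes of 100 to 300 kb. In genes of 300 to 1000 kb they were found at 18.7% (14.6 to 23.6) and 10.7% (7.27 to 15.6). Over all lengths 37.7% of the 1925 hosts and 23.3% of the other protein-coding genes had such a peak, and hosts are longer.

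Of the 19 gene lists reported, 18 had a number of members whose 95% Poisson interval included the number given by length. For lists the counts below are genes that held a member, then members, then members by length, beside the 10.0% of all protein-coding genes that held one and the median of 6 fragments over all members. The lists were drawn up when Ror2, Tcf4, Bank1 and Gphn were known to hold strong peaks, so these genes are no evidence for their lists.

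Core clock and clock output genes held members in 3 of 24 cases (5 members, 4.18 by length). Npas2, a paralog of CLOCK, held 3, with 4, 6 and 8 fragments 70.01, 111 and 136 kb after the start and no PBS peak in the gene. Rora, a nuclear receptor gene whose product competes with NR1D1 for its sites, held 1 of 4 fragments. The NCoR corepressor genes counted 4 of 12 (5 members, 4.68 by length). Hdac4, a class II histone deacetylase, held 1 of 8 fragments, and Hdac3, the catalytic subunit recruited by NR1D1, and Rcor1 1 each of 4. By length alone 2.99 clock and 3.05 corepressor genes would be hosts.

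Among smooth muscle genes, the contractile apparatus and actin cytoskeleton counted 6 of 28 (11 members, 6.88 by length, ratio 1.60, 95% Poisson interval 0.799 to 2.86) with a median of 8 fragments. Lpp, an actin-associated LIM protein of smooth muscle, held 3, with 6, 11 and 8 fragments 53.1, 93.8 and 232 kb after the start. Mylk, the myosin light chain kinase that starts contraction, held 2 of 6 and 10 fragments, with the nearest PBS peak 420 kb from the stronger. Myh11, the smooth muscle myosin heavy chain, held 1 of 8 fragments, and Palld, which encodes palladin, 2 of up to 8. Among members above the median fold of the vasostatin-2 list the ratio was 2.53 (1.02 to 5.21), and with q under 1e-05 it was 0.900 (0.0228 to 5.02). With at least 8 fragments, a limit set after the data were seen, it was 2.90 (1.06 to 6.32).

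SRF, YAP and other smooth muscle transcription regulators counted 8 of 27 (11 members, 6.18 by length). Runx1 held 2 of 10 and 11 fragments beside 3 PBS peaks in the gene, and Runx2, a factor of bone formation and vascular calcification, 2 of 7 and 9 with none. Nfatc2, a calcium-regulated factor, held 1 of 9 fragments and Tead1, a DNA-binding partner of YAP, 1 of 6. Regulators in long genes (nuclear factor I, E-proteins, homeobox and some of other families) counted 10 of 24 (22 members, 18.3 by length). Auts2, named above for its number of members and of none of these 3 families, held 7 of the 22. Besides Tcf4 and Auts2, Nfix held 3 of 7 to 8 fragments in 96.5 kb (0.222 by length), and Ebf1 1 of 7.

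Integrins and focal adhesion genes counted 6 of 25 (10 members, 6.40 by length). Next to Itga9, Itga11, a collagen receptor subunit, held 2 of 9 and 13 fragments, 51.99 and 58.3 kb after the start, Itgb3 2 of up to 9 and Tns3 1 of 7. Collagens and matrix genes counted 9 of 32 with 9 members against 13.1 by length (ratio 0.685, 0.313 to 1.2997). More than 3 kb from gene ends the ratio was 0.416 (0.135 to 0.971), and with q under 1e-05 it was 0 (0 to 1.74). It was above 1 among members above the median fold of the vasostatin-2 list, at 1.32 (0.532 to 2.72). With at least 8 fragments it was 1.26 (0.411 to 2.95). Adamts2, a procollagen protease, held 1 of 10 fragments, and Vcan, the proteoglycan versican, 1 of 9.

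Wnt receptor, polarity and TCF genes counted 6 of 34 (9 members, 6.66 by length). Ror2 held 4 of these 9, with 23 fragments at 16.2 kb after the start and 4, 4 and 5 at 44.8, 58.4 and 153 kb. Ptk7, a Wnt co-receptor, held 1 of 9, and the polarity genes Prickle1 and Prickle2 1 each of 7. The 3 weaker members of Ror2 thus fall in the lowest class of fragments. TGF-beta, BMP and SMAD genes counted 6 of 28 (8 members, 6.42 by length), with Ltbp2, a matrix protein of the latent TGF-beta binding family, at 11 fragments, the inhibitor Smad6 at 8, Bmpr1b at up to 7 and Smad5 at 6.

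Growth factor receptor and MAP kinase genes counted 9 of 31 (15 members, 13.3 by length). Nf1, the RAS GTPase-activating neurofibromin, held 3 of 13, 7 and 5 fragments at 18.05, 42.9 and 211 kb after the start, with no PBS peak in the gene. The kinases Map2k5 and Map3k5 held 1 each, of 10 and 9 fragments, and Erbb4 2 of up to 7. Ion channel and calcium genes counted 14 of 33 (17 members, 19.3 by length). Among them Atp2b4, a plasma membrane calcium pump, held 1 of 9 fragments, Kcnma1, the BK potassium channel, 2 of up to 9, and the L-type calcium channel genes Cacna1c and Cacna1d 2 and 1 of up to 8. Cyclic nucleotide genes counted 7 of 31 (15 members, 17.7 by length), with Adcy9, an adenylyl cyclase, at 14 fragments, the phosphodiesterase genes Pde4a at 11 and Pde10a at 4 members of 4 to 7, and Pde1c at 3 of up to 6.

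Very long synaptic and adhesion genes were the list with an interval below 1: 33 of 40 held 71 members against 126 by length (ratio 0.561, 95% Poisson interval 0.438 to 0.708). Their members had a median of 5 fragments. Lsamp held 2 of up to 14 fragments (5.35 by length) and Wwox, an oxidoreductase at a fragile site, 1 of 12. Axon guidance genes counted 12 of 28 (19 members, 23.7 by length), with Unc5b, a netrin receptor of vessels, at 12 fragments, Plxna2 at 11, Robo2 at 4 members of up to 9 and the semaphorin and VEGF co-receptor Nrp1 at 8. For all 59 protein-coding genes of 1000 kb or more the ratio was 0.613, and many genes are in both sets.

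Lipid and glucose genes counted 8 of 27 (10 members, 6.21 by length), with Lpin1, a phosphatidate phosphatase, at 12 fragments, the coactivator Ppargc1b at 11, Osbpl10 at 3 members of up to 9 and the acetyl-CoA carboxylase Acacb at 7. Autophagy and lysosome genes counted 6 of 22 (9 members, 6.23 by length), and besides Tfeb included Atg10 and Uvrag at up to 8 fragments and Vps13d at 7. NF-kB and inflammatory genes counted 3 of 28 (4 members, 3.17 by length), with Nfkbiz, an atypical inhibitor of NF-kB, at 8 and the adhesion molecule Vcam1 at 5 next to Bank1. Chromatin regulators counted 7 of 27 (8 members, 7.44 by length), with Arid1b and Kdm2b at 9 and Chd2 at 7. Kdm6b, a histone H3 lysine demethylase, held 1 of 10 fragments at 3.57-fold, 0.797 kb from a PBS peak. That gene held 3 PBS peaks. Ubiquitously expressed genes, which are short, counted 2 of 18 (0.352 members by length), Ywhaz at 8 and Hprt at 6 fragments. Their ratio was 5.68 (0.688 to 20.5), and 8.93 (1.08 to 32.2) more than 3 kb from gene ends. With gaps of up to 500 bp counted as shared it was 2.88 (0.0729 to 16.04), and with q under 1e-05 it was 0 (0 to 64.8). The Ywhaz member lay 0.015 kb from a PBS peak.

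**Figure D4:**
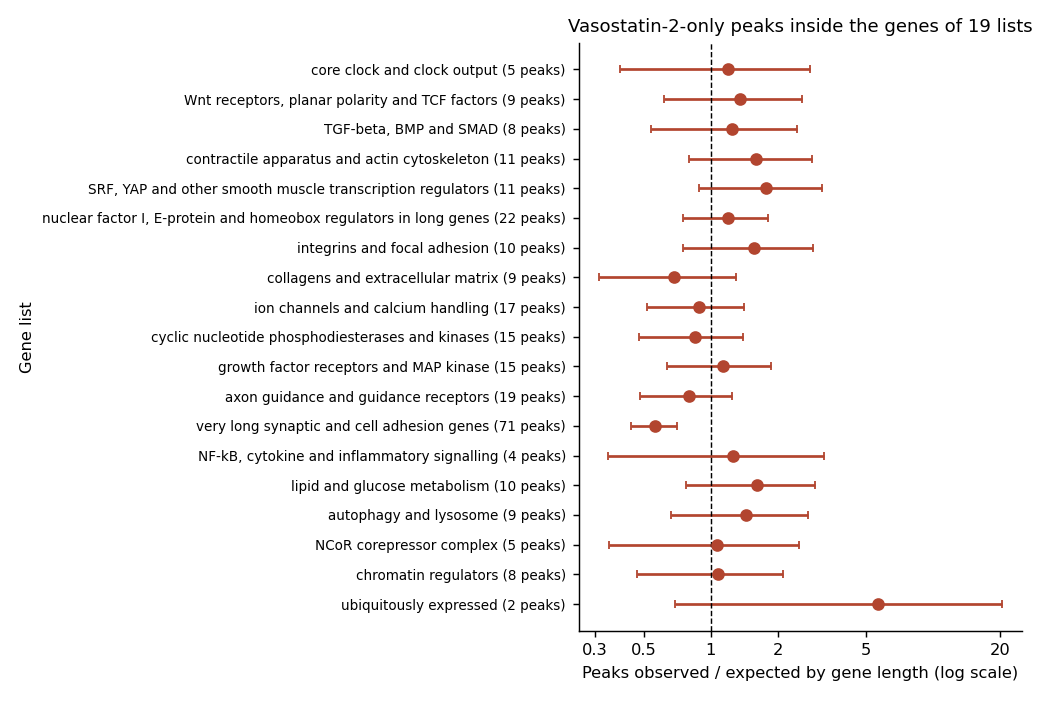
Vasostatin-2-only peaks inside the genes of 19 lists, as the observed number over the number expected by eligible gene length (log axis), with 95% Poisson intervals and the number of peaks in brackets. The interval of the very long synaptic and cell adhesion genes lies below 1, and the other 18 include 1.

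Markers of cell types do not identify the cells from peaks, and were counted for completeness. Smooth muscle markers held a member in 1 of 10 cases (Myh11, 1.48 members by length). Endothelial markers did in 3 of 10 (4 members, 1.90 by length), with Erg at 2 members of 8 and 9 fragments, Vwf at 5 and Cdh5 at 4. Fibroblast markers did in 2 of 10 (2 members, 0.561 by length), with Pdpn at 10 and Mfap5 at 4. Macrophage and leukocyte markers did in 0 of 10, where 1.09 members follow from length. The 95% Poisson intervals of the ratio were 0.0171 to 3.76 for smooth muscle, 0.572 to 5.38 for endothelial and 0.432 to 12.9 for fibroblast markers. Each of these, and that of the macrophage list (0 to 3.40), included 1.

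The members were unevenly spread over chromosomes. Chromosome X held 28 against 122 by eligible bases (ratio 0.230, 95% Poisson interval 0.153 to 0.333), chromosome 12 held 62 against 125 (0.496, 0.381 to 0.636), and chromosomes 3 and 4 held 102 against 148 (0.689) and 120 against 171 (0.703). On chromosome X the ratio was 0.102 (0.0123 to 0.368) with q under 1e-05, 0.102 (0.0332 to 0.238) above the median fold of the list and 0.0820 (0.0169 to 0.2397) with at least 8 fragments. Chromosomes 19 (104, ratio 1.42, 1.16 to 1.73), 8 (188, 1.36, 1.17 to 1.57) and 11 (196, 1.35, 1.16 to 1.55) stood highest. PBS-only peaks inside genes were also few on X (0.360, 0.239 to 0.520), 3 (0.581) and 12 (0.663, 0.497 to 0.867) and frequent on 19 (1.78) and 11 (1.44). On chromosome 8 they stood at 0.984 (0.788 to 1.21). Shared peaks inside genes stood at 1.36 (1.01 to 1.80) on chromosome 8, like the members, and at 0.279 (0.128 to 0.530) on X. Copy number and coverage of the chromosomes in these cells are not given in the sources used here.

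**Figure D5:**
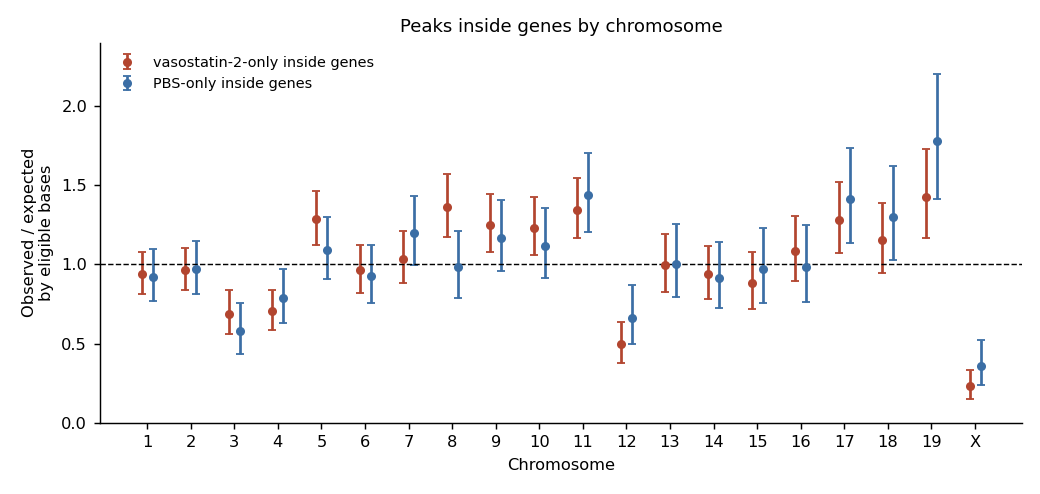
Observed over expected number of vasostatin-2-only and PBS-only peaks inside genes on chromosomes 1 to 19 and X, with 95% Poisson intervals; the expected number is proportional to eligible bases. Both sets are lowest on X, at 0.230 and 0.360, and highest on chromosome 19, at 1.42 and 1.78.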

How the data were processed

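NR1D1 CUT&Tag peak lists of the PBS and the vasostatin-2 library were used. The build was mm10 and the tools named were MACS2 2.2.7.1, BWA 0.7.17 and Trimmomatic 0.39, per the submitters' processing notes, which give no roles or settings. The deposited lists have 10 columns without a header, in the caller's usual order. The authors' fold enrichment is a ratio of summit to local background. The authors give each summit's p-value and q-value as -log10, with q from 1.32 upwards (PBS) and 1.31 upwards (vasostatin-2). The deposited score is 10 times the -log10 q rounded down, and was not used. Start, end and summit are the authors' coordinates, written from 1.

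Fold and p together fix the fragment number at a summit under the Poisson model of MACS2; whole numbers were found, within 0.0005 of the deposited -log10 p, at 100% of peaks. The depth factor rests on the caller's usual 10000 bp window, which was assumed. Overlap was 1 bp (checked with bedtools 2.31.1). Genes were the 49943 of the RefSeq table of GRCm38.p6, which gives no exons; whether a member is exonic or intronic was not analysed here. Expected numbers are closed-form shares of eligible bases, with no random placement and no mappability term. Steps were tested on simulated data (Python 3.11.15, scipy 1.17.1).

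Named were the hosts of the 10 highest folds, the 8 protein-coding genes with most members, the 6 with at least 3 members and the highest ratio, the 3 longest with none, and up to 4 genes per list by fragments. Some genes and 1 gene list that these rules name are not reported here. Members, lists and rules were chosen with earlier results of these data known. Alternatives are listed in the closing section.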

Additional observations from a re-analysis of the deposited data

How the results depend on the processing

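Alternatives changed 1 choice at a time; those on fragments and on chromosomes X and Y, and the results on starts and on chromosome X, were added after seeing the data. Of 55 recomputed main values 36 stayed within 1.5 times the reported count or inside the reported interval and 19 did not; of 160 list values 147 did. The ratio in hosts of at least 100 kb stayed below 1 in each setting. No paired analysis was possible because each treatment has 1 NR1D1 library. Most members have 4 to 8 fragments, which limits every count.

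With q under 1e-05 there were 455 members in 361 protein-coding hosts, 44.3% of vasostatin-2-only peaks were inside genes, the median was 10 fragments, the ratio near starts 1.98 and the ratio on chromosome X 0.102. Among peaks above the median fold of the vasostatin-2 list there were 1134 members in 850 hosts, with a median of 8 fragments, 2.34 near starts and 0.102 on chromosome X. With at least 8 fragments there were 847 members in 650 hosts, with 0.802 in hosts of at least 100 kb and 0.0820 on chromosome X. Fewer peaks are tested in these settings by construction. Reciprocal overlap of 50% gave 44.1% inside genes and 4.18 near starts. A limit of 3 kb from gene ends gave 38.7% and protein-coding genes only 39.9% inside genes, both by their construction; the cause of the other moves was not tested.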

Other observations

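Of the members 413 (14.7%) lay in noncoding genes only, with a median of 6 fragments, at most 16, and a median host length of 41.5 kb. The highest folds among them were in the long noncoding RNA genes 5730522E02Rik (15 fragments, 10.2-fold) and Gm12610 (16 fragments, 10.04-fold). Both were named after their values were seen.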
